A study of Homo sapiens with 12 samples.

Results

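The genes described here are 6 genes for histone H2B (H2BC4, H2BC5, H2BC8, H2BC11, H2BC12 and H2BC21) and 1 gene for the linker histone H1-2, measured in T98-G cells, a human glioblastoma line. The group was selected on measured values: its genes are H2B and H1 members of the replication-dependent histone genes that were detected in polyadenylated RNA and rose with the inhibitor onametostat, each by more than 1 on the log2 scale in normoxia. Genes that rose by less, such as H2AC6, are outside it. The 7 genes were found in the count table by symbol and Ensembl identifier. They are 7 of the 16 replication-dependent histone genes among the 14698 genes of the table. GENCODE v44 names 83 such genes by symbol, pseudogenes included. By family, 6 of 8 measured H2B genes and the only measured H1 gene belong to the group, against 0 of 3 H2A, 0 of 3 H3 and 0 of 1 H4 genes. These family counts follow from the choice. Because the choice used the onametostat comparisons, values of these 7 genes with onametostat against DMSO are given as a description, and calls listed for them are not read as tests. The tests reported here concern oxygenation and the interaction of treatment and oxygenation, and these comparisons share libraries with the comparisons that chose the genes.

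Onametostat inhibits PRMT5, an enzyme that methylates arginines of histones and splicing factors, and the series compares mRNA of T98-G cells with and without it at 2 oxygen levels. T98-G cells were kept for 48 h with 1 µM onametostat or with 0.1% DMSO as the negative control, at 20% oxygen (normoxia) or at 1% oxygen (hypoxia), and mRNA was sequenced in 3 experiments per condition, 12 libraries in all. All 4 conditions come from the same established line in the same growth medium, and no genetic change is named in the labels. The paper calls the 3 experiments independent. The labels number the experiments but do not say whether each was a separate culture, so p-values measure the spread between these libraries.

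Replication-dependent histone genes are transcribed mainly in S phase, when new DNA has to be packed into nucleosomes. Their main transcripts do not end in a poly(A) tail but in a short stem-loop that the protein SLBP binds and that the U7 small nuclear ribonucleoprotein helps to form by cutting the precursor. H2B pairs with H2A in the nucleosome core, and H1-2 binds the linker DNA between nucleosomes. The libraries were made from polyadenylated RNA, which selects for transcripts with a tail. Counts by gene do not separate them from stem-loop-ended transcripts, and carry-over of the latter through the selection was not tested.

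All 7 genes carry the histone stem-loop shortly after the stop codon, where the spelling of the loop divides them into 2 sets. The sequences below were read from GRCh38 with the stop codon of GENCODE v44, with the 16 bases of the stem-loop in capitals and 5 bases on each side in lower case. They are shown because they are the regular transcript end of these genes, upstream of any poly(A) tail that the libraries could have captured.
H2BC21 (chr1:149886188-149886203, minus strand): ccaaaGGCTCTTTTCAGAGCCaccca
H2BC8 (chr6:26216218-26216233, minus strand): tcaaaGGCTCTTTTCAGAGCCactca
H1-2 (chr6:26055744-26055759, minus strand): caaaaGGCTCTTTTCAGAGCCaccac
H2BC4 (chr6:26123472-26123487, minus strand): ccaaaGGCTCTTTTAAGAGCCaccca
H2BC5 (chr6:26158587-26158602, plus strand): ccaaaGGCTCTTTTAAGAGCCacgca
H2BC11 (chr6:27132321-27132336, minus strand): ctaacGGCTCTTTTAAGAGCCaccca
H2BC12 (chr6:27146366-27146381, minus strand): ccaaaGGCTCTTTTAAGAGCCactta
The first base of the stem-loop lies 28 to 57 bases after the stop codon. H2BC21, H2BC8 and H1-2 have the most common spelling of the element, and the other 4 genes differ from it by C10A, counted from 1 at the 5′ base of the 16. A stem-loop was also found in 8 of the 9 other measured histone genes, 4 of them with the common spelling, and in 51 of 54 protein-coding histone genes outside the table, 33 of them with the common spelling. In the search of 300 bases after the stop codon, H3C6 was the only measured histone gene with no match.

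H2B promoters are known for an octamer bound by POU2F1 (OCT-1) with a coactivator complex that links H2B transcription to S phase, and H1 promoters for the H1 box. Promoters from RefSeq (GRCh38.p14), each of 250 bases before and 50 bases after the start, were searched on both strands (each motif and its reverse complement) for the octamer ATTTGCAT, the CCAAT box, the TATA box TATAAA and the H1 box AAACACA. A motif was counted as found whether or not it overlapped another. All 7 genes matched the promoter table. The 120 bases before the start are printed for the pair of H2B genes with the largest log2 fold change with onametostat in normoxia, for the H2B gene with the smallest and for H1-2, with motif letters of either strand in capitals.
H2BC21 (chr1:149886683-149886802, minus strand): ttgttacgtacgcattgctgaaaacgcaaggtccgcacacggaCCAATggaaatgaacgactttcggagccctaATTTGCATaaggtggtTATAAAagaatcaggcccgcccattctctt
H2BC12 (chr6:27146859-27146978, minus strand): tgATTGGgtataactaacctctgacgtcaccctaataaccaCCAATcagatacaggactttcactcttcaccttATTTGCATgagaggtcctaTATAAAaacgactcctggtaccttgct
H2BC8 (chr6:26216689-26216808, minus strand): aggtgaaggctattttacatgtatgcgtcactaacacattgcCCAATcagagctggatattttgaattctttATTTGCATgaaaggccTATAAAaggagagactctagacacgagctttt
H1-2 (chr6:26056471-26056590, minus strand): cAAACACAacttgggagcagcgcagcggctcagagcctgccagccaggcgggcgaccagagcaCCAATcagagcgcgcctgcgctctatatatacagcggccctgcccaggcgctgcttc
The octamer was found in 5 of the 7 promoters, those of H2BC4, H2BC8, H2BC11, H2BC12 and H2BC21, against 1.80% of 27305 promoters in the table. It is shared by H2B genes in general, with a match in 14 of 18 H2B promoters and in 8 of the 10 H2B promoters whose genes were outside the count table. Other replication-dependent histone genes hold it too, 4 of the 9 others in the count table and 12 of 46 H2A, H3, H4 and H1 promoters. In H2AC6, H2AC11 and H2AC20 the match is the very site counted for H2BC4, H2BC11 and H2BC21, whose promoters overlap theirs. These counts therefore do not stand for separate sites. In H2BC8, H2BC11, H2BC12 and H2BC21 its first base lies 46 to 48 bases before the start, between the CCAAT box and the TATA box, whereas in H2BC4 it lies 123 bases before the start. The CCAAT box was found in 7 of 7 promoters against 8 of the 9 other measured histone genes, 36 of 46 H2A, H3, H4 and H1 promoters and 35.7% of all promoters. TATAAA was found in 6 of 7, all but H1-2, against 5 of 9, 30 of 46 and 12.0%. In H2BC4 its only match lies 220 bases before the start. That match is the very site counted for H2AC6, 31 bases before the start of H2AC6. The CCAAT boxes counted for this pair are shared as well. The H1 box was found in H1-2 only among the 7, against 5.76% of all promoters. H2BC8 holds the same motifs at nearly the same distances as H2BC21 and H2BC12 and had a smaller log2 fold change with onametostat. These matches are letters in a window and do not show binding.

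Depth sets how precisely these low counts can be read. In 10 of the 12 libraries the total was 18154073 to 45977729 counts. With onametostat in hypoxia library 2 had 7641280 and library 3 only 403279 counts. For both of these the paper lists more filtered reads than counts, with a wider gap than in the other libraries. The reason for this gap was not tested. The 7 genes together had between 389 and 2106 counts per library in 11 libraries and 24 counts in library 3 of onametostat in hypoxia, where 1 count is worth 2.69 normalised CPM and a count of 0 allows up to 8.07 CPM (3 counts, counting error only). CPM are counts scaled to the usual common total, with library totals corrected by TMM factors for differences in composition between libraries. Of 10 chosen cell type markers 4 were in the table. VIM and CD44, mesenchymal markers that glioblastoma lines express, ranged from 1236 to 1493 and from 1496 to 1923 CPM. FN1 ranged from 339 to 653 CPM. OLIG2, a glial marker, was low, at 0.611 to 2.69 CPM, the highest from 1 count in library 3 of onametostat in hypoxia. NES, GFAP and markers of blood, endothelium, epithelium and macrophages (PTPRC, PECAM1, EPCAM and CD68) were not analysed here.

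The genes for H2B differed in how they can be counted. H2BC12 and H2BC21 share 72.9% and 52.9% of the 50-base windows of their coding sequence with transcripts of other genes, H2BC4, H2BC11 and H2BC5 share 15.8%, 13.1% and 11.2%, and H2BC8 and H1-2 share none. Under its default setting featureCounts leaves out reads that align to several places, so counts of H2BC12 and H2BC21 may come from part of the transcript. Between the 6 H2B genes, 86.8% to 92.6% of the 378 coding bases were identical (15 pairs, median 90.2%). Exons of H2BC4 overlap exons of other genes, HFE among them, over 890 of 2881 bases. Since the default counting does not use strand, reads there cannot be assigned to a single gene. HFE itself was lower under onametostat (log2 fold change -0.94 in normoxia and -1.01 in hypoxia), where H2BC4 was higher.

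With onametostat all 7 genes were higher in mean CPM in normoxia and all but H2BC8 in hypoxia, with the largest log2 fold changes in H2BC21, H2BC12 and H2BC4. H2BC21 encodes an H2B and lies on chromosome 1, apart from the large histone cluster on chromosome 6 that holds the other 6 genes. With DMSO in normoxia it had 0.740, 1.17 and 0.961 CPM, and with onametostat in normoxia 6.25, 6.60 and 6.59 CPM. In hypoxia it had 1.26, 1.47 and 1.41 CPM with DMSO, and 5.40, 5.05 and 8.07 CPM with onametostat, the last from 3 counts. Every library with onametostat lay above every library with DMSO, and the rise was 6.51-fold in normoxia (log2 fold change 2.70, SE 0.16) and 3.80-fold in hypoxia (1.93, SE 0.16).

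H2BC12, an H2B gene of the cluster on chromosome 6, differed between all 4 conditions without overlap, as H2BC4 did. It had 2.65, 2.52 and 1.92 CPM with DMSO in normoxia and 11.1, 11.0 and 10.5 CPM with onametostat. In hypoxia it had 5.63, 3.25 and 4.93 CPM with DMSO and 18.6, 17.4 and 18.8 CPM with onametostat, the last from 7 counts. The 4 conditions did not overlap, and the rise with onametostat was 4.53-fold in normoxia (log2 2.18, SE 0.17) and 4.07-fold in hypoxia (log2 2.03, SE 0.15).

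H2BC4 encodes an H2B as well. It had 0.827, 1.00 and 0.961 CPM with DMSO in normoxia and 4.04, 3.48 and 3.94 CPM with onametostat. Its values in hypoxia were 1.48, 1.02 and 1.33 CPM with DMSO and 4.78, 4.65 and 8.07 CPM with onametostat, the last again from 3 counts. None of the 4 conditions overlapped, and the rise was 3.99-fold in normoxia (log2 2.00, SE 0.18) and 3.85-fold in hypoxia (log2 1.95, SE 0.18).

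The other H2B genes rose less with onametostat. H2BC5 had 4.61, 3.71 and 4.98 CPM with DMSO in normoxia, 7.11, 5.71 and 6.81 with DMSO in hypoxia, 11.9, 9.68 and 10.4 with onametostat in normoxia and 16.7, 14.3 and 10.8 with onametostat in hypoxia. The last of these values comes from 4 counts. Libraries with onametostat all exceeded those with DMSO, and the log2 fold change was 1.28 in both oxygenations (SE 0.13 in each). H2BC11 had 1.31, 1.64 and 1.57 CPM with DMSO in normoxia, 4.10, 2.15 and 3.28 with DMSO in hypoxia, 4.09, 3.41 and 3.90 with onametostat in normoxia and 7.09, 3.99 and 5.38 with onametostat in hypoxia, the last from 2 counts. Its levels with DMSO in hypoxia overlapped those with onametostat in normoxia and in hypoxia, and the log2 fold change was 1.28 in normoxia (SE 0.24) and 0.99 in hypoxia (SE 0.23), where it was 0.41 without library 1 of onametostat in hypoxia.

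H2BC8 was the least measured of the 7, with 0 to 30 counts per library. It had 0.218, 0.381 and 0.262 CPM with DMSO in normoxia, 0.567, 0.404 and 0.279 with DMSO in hypoxia, 0.885, 0.710 and 0.464 with onametostat in normoxia and 0.675, 0.266 and 0 with onametostat in hypoxia. The values with onametostat in hypoxia spanned those of both DMSO conditions, and the last of them, from a count of 0, allows more than any other value of the gene. Its log2 fold change with onametostat was 1.15 in normoxia (SE 0.37) and 0.50 in hypoxia (SE 0.46), where the value was -0.61 without library 1 of onametostat in hypoxia.

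H1-2, which encodes a linker histone, had the most counts of the 7. It had 6.57, 6.57 and 6.42 CPM with DMSO in normoxia, 12.1, 9.50 and 11.3 with DMSO in hypoxia, 14.7, 14.98 and 15.6 with onametostat in normoxia and 21.3, 19.8 and 13.5 with onametostat in hypoxia. Libraries with onametostat lay above all libraries with DMSO in either oxygenation, though the 13.5 CPM of library 3 in hypoxia rest on 5 counts. The log2 fold change was 1.21 in normoxia (SE 0.09) and 0.92 in hypoxia (SE 0.10).

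**Figure D1:**
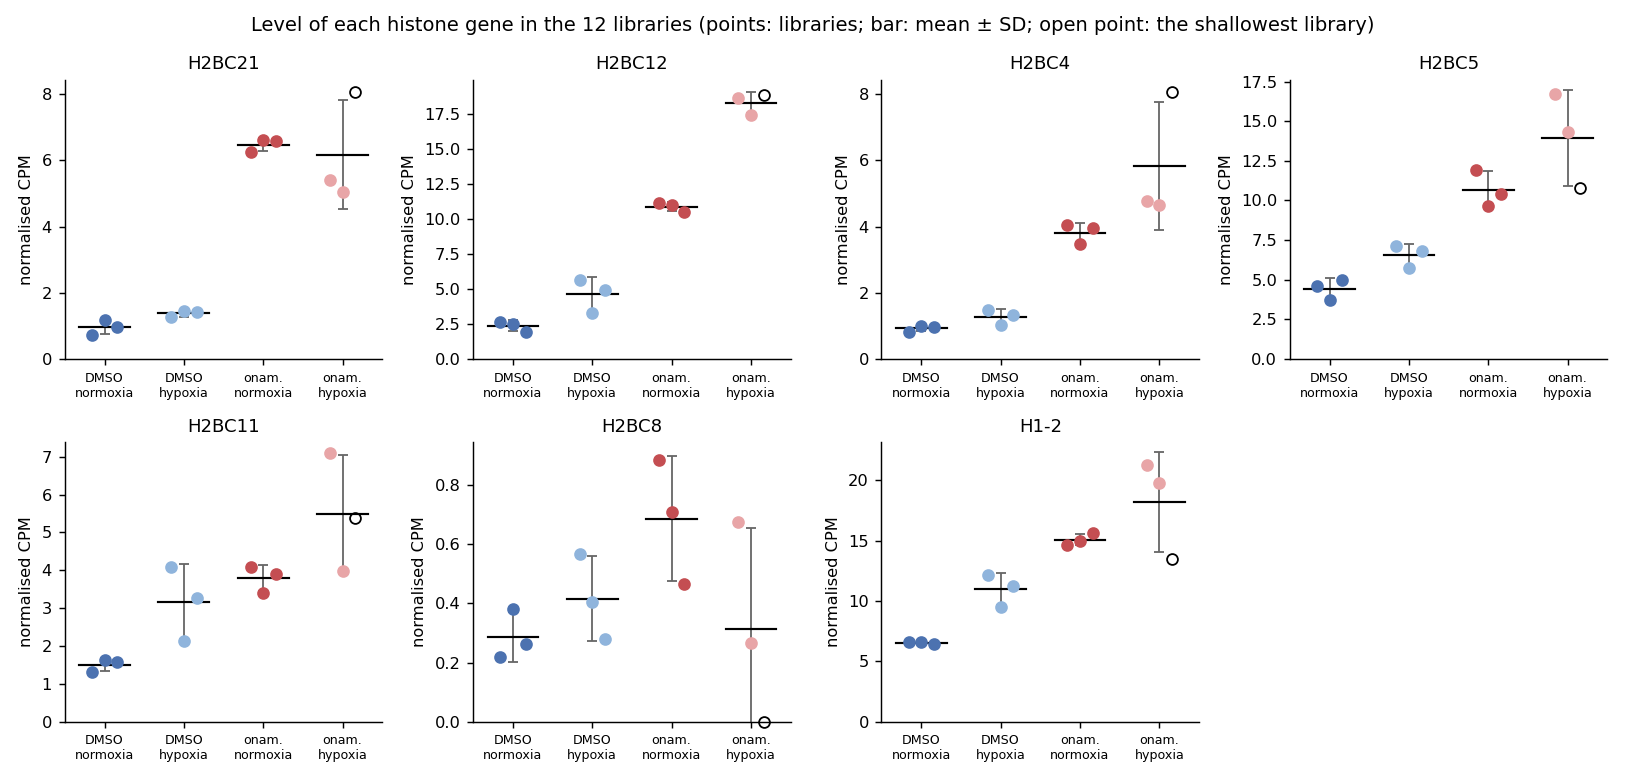
Normalised CPM (vertical axes, from 0) of the 7 genes in the 12 libraries, by condition, with the mean and SD of 3 libraries. The open points are library 3 of onametostat in hypoxia, where 1 count is worth 2.69 CPM, and 6 of the 7 genes have the lowest mean with DMSO in normoxia, followed by DMSO in hypoxia and the onametostat conditions. In H2BC8 neighbouring conditions overlap throughout.

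Summed over the 7 genes, the level was 16.9, 17.0 and 17.1 CPM with DMSO in normoxia and 32.3, 23.5 and 29.3 CPM with DMSO in hypoxia. With onametostat the sum was 53.0, 49.8 and 51.4 CPM in normoxia and 74.6, 65.5 and 64.6 CPM in hypoxia. The 4 conditions thus stood in the order DMSO in normoxia, DMSO in hypoxia, onametostat in normoxia and onametostat in hypoxia, with no overlap between neighbours, and the last value rests on 24 counts. In bulk RNA, more cells that express these genes and more of their RNA per cell cannot be told apart.

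A gene was called a DEG (differentially expressed gene) when its adjusted p was under 0.05 and it moved by more than 1 on the log2 scale. In normoxia all 7 genes met this with onametostat, against 1.76% of all genes that were higher by the same rule, and in hypoxia 4 of 7 (H2BC4, H2BC5, H2BC12 and H2BC21) did, against 2.08%. By adjusted p alone it was 7 of 7 in normoxia (27.2% of all genes) and 6 of 7 in hypoxia (25.6%, and 5 of 7 without library 1 of onametostat in hypoxia), and libraries did not overlap in 7 of 7 (31.2%) and 5 of 7 (20.9%). These counts are from edgeR and follow from the choice of the genes. DESeq2 called 6 in normoxia, all but H2BC8. Around the threshold in normoxia, the lowest log2 fold changes inside the group were those of H2BC8 (1.15) and H1-2 (1.21), and the highest outside it among histone genes was that of H2AC6 (0.94). In hypoxia H2BC11 (0.99) and H1-2 (0.92) fell just short of the fold change threshold.

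In hypoxia without the inhibitor, 5 of the 7 genes rose, H1-2 and H2BC12 with the smallest p-values. Against normoxia with DMSO, 5 of 7 passed an adjusted p of 0.05 in edgeR's quasi-likelihood test and were higher, compared with 14.1% of the 14698 genes. H1-2 rose 1.66-fold (log2 0.73, SE 0.09, adjusted p = 2.43e-05), H2BC12 1.86-fold (log2 0.90, SE 0.17, adjusted p = 9.38e-04) and H2BC11 1.99-fold (log2 0.99, SE 0.23, adjusted p = 0.00365), by the same test. H2BC5 rose 1.49-fold (log2 0.58, SE 0.13, adjusted p = 0.00257). H2BC21 passed narrowly, with 1.41-fold (log2 0.49, SE 0.18, adjusted p = 0.0422), and DESeq2 gave it an adjusted p of 0.162.

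H2BC4 and H2BC8 did not pass, with log2 fold changes of 0.40 (95% interval -0.01 to 0.81, adjusted p = 0.136) and 0.35 (-0.46 to 1.15, adjusted p = 0.531) in edgeR. The 3 libraries of hypoxia lay above the 3 of normoxia in 6 of the 7 genes, all but H2BC8, where 22% of all genes did so. The median log2 fold change of the 7 genes was 0.58, with all 7 above 0, and that of all genes was 0.00. This contrast shares all its libraries with the comparisons that chose the genes, as their controls.

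By the DEG rule 0 of the 7 genes were called in this comparison by edgeR, against 0.599% of all genes that were called higher, while 5 had an unadjusted p under 0.05, as did 38.6% of all genes. DESeq2 called 1, H2BC11 with a log2 fold change of 1.05, and limma voom called 0. The count was 1 (H2BC11) without library 2 or library 3 of DMSO in normoxia and 2 (H2BC11 and H2BC12) without library 2 of DMSO in hypoxia, where their log2 fold changes were 1.23 and 1.12. H2BC21 lost its adjusted p under 0.05 without any of 8 libraries (libraries 1 and 3 of DMSO in normoxia, all 3 of DMSO in hypoxia and all 3 of onametostat in normoxia), with adjusted p-values of 0.0589 to 0.189 and log2 fold changes of 0.36 to 0.53, and its adjusted p was 0.0616 with a replicate block, while the other 4 genes kept theirs in every alternative run.

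With onametostat in both groups, 3 of the 7 genes rose in hypoxia. Compared with normoxia with onametostat, H2BC12 rose 1.67-fold (log2 0.74, SE 0.15, adjusted p = 0.00305), H2BC5 1.49-fold (log2 0.58, SE 0.13, adjusted p = 0.00696) and H1-2 1.36-fold (log2 0.44, SE 0.10, adjusted p = 0.00720) in edgeR's quasi-likelihood test. Over all genes 7.69% were higher by adjusted p, and this contrast shares the onametostat libraries with the comparisons that chose the genes. H2BC11 had a log2 fold change of 0.70 (95% interval 0.20 to 1.19, adjusted p = 0.0573), H2BC4 of 0.35 (0.0024 to 0.70, adjusted p = 0.178), H2BC21 of -0.28 (-0.58 to 0.01, adjusted p = 0.196) and H2BC8 of -0.31 (-1.25 to 0.64, adjusted p = 0.712). No overlap between the groups was seen in H2BC4 and H2BC12, 2 of 7 genes, against 11.8% of all genes.

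None of these 7 was a DEG in edgeR, DESeq2 or limma voom (0 of 7 in each, against 0.415% of all genes called higher by edgeR), and 5 had an unadjusted p under 0.05 in edgeR, as did 28% of all genes. Without library 1 of onametostat in hypoxia, the deepest of that condition, 0 of 7 genes passed. The log2 fold changes were then 0.69 for H2BC12 (adjusted p = 0.0872 in edgeR), 0.42 for H2BC5 (0.249) and 0.36 for H1-2 (0.185), and those of H2BC11 and H2BC8 were 0.12 and -1.42. H2BC11, in contrast, passed without library 2 or library 3 of that condition (adjusted p = 0.0200 and 0.0427) and without library 1 or library 2 of DMSO in hypoxia (0.0407 and 0.0254), as edgeR gave them.

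The interaction asks whether the difference between onametostat and DMSO itself changed with oxygenation. In edgeR 0 of 7 genes passed an adjusted p of 0.05, and 0 were DEGs, and 2 had an unadjusted p under 0.05. Over all genes 0.497% passed the adjusted p, 0.0204% were DEGs and 13.2% had an unadjusted p under 0.05. DESeq2 and limma voom also gave 0 of 7. H2BC21 had the smallest p, with a log2 difference of -0.78 (95% interval -1.25 to -0.30, adjusted p = 0.130 in edgeR, unadjusted p = 0.00281), which means a smaller rise in hypoxia, and the adjusted p ranged from 0.107 to 0.304 over its alternatives.

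H1-2 had a log2 difference of -0.29 (95% interval -0.58 to -0.0037, adjusted p = 0.371 in edgeR). For H2BC5 the difference was 0.00 with an interval of -0.38 to 0.38, and for H2BC4 it was -0.05 (-0.59 to 0.49). H2BC12 had -0.16 (-0.63 to 0.32), H2BC11 -0.30 (-0.99 to 0.40) and H2BC8 -0.65 (-1.90 to 0.59), which was -1.76 without library 1 of onametostat in hypoxia. The sign of the H2BC5 and H2BC4 estimates turned under several alternatives. The interaction shares all its libraries with the comparisons that chose the genes.

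**Figure D2:**
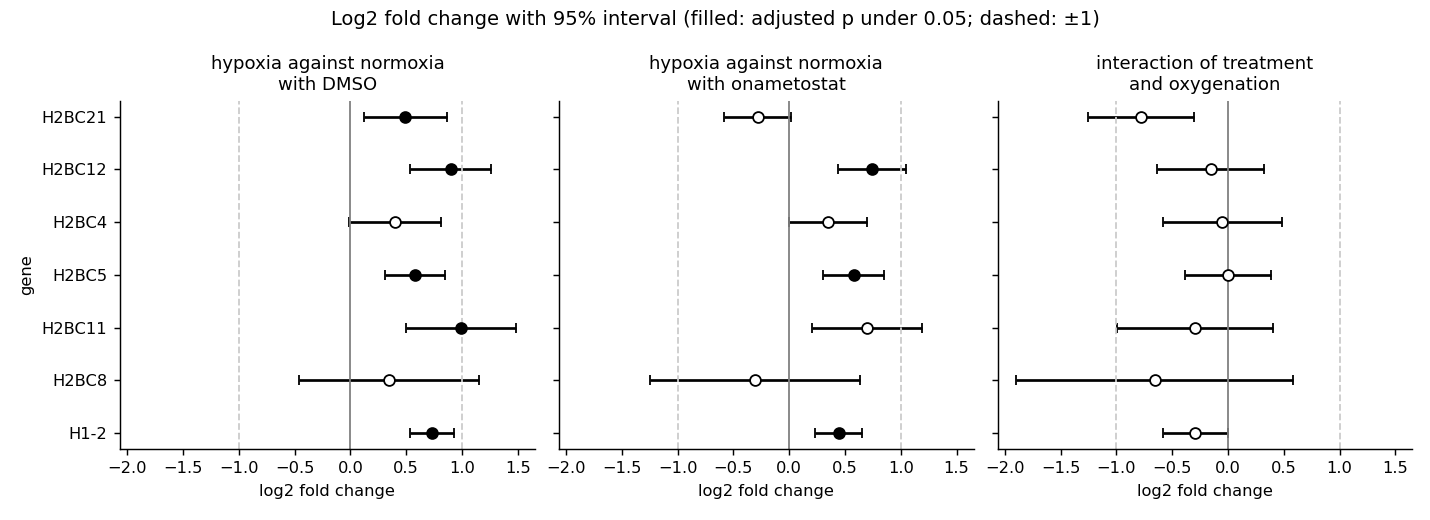
Log2 fold changes (horizontal axes) with 95% intervals of the 7 genes in the comparisons of hypoxia with normoxia and in the interaction, filled where the adjusted p was under 0.05. With DMSO 5 genes are filled and all 7 lie above 0, with onametostat 3 are filled, and in the interaction none is, with H2BC21 at -0.78.

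Of the 9 other replication-dependent histone genes of the table, 2 rose with onametostat in normoxia by an adjusted p under 0.05 in edgeR, H2AC6 and H3C10, and H2AC6 rose in hypoxia. By the same rule 27.2% of all genes rose in normoxia and 25.6% in hypoxia. The median log2 fold change of the 9 genes was 0.18 in normoxia and -0.36 in hypoxia, against 1.28 in each for the 7 genes chosen for rising and -0.01 for all genes in both. H2AC6, which encodes an H2A, rose 1.92-fold in normoxia (log2 0.94, SE 0.08, adjusted p = 2.61e-08) and 1.65-fold in hypoxia (log2 0.72, SE 0.09, adjusted p = 2.91e-06) in edgeR. H3C10, a gene for H3, had a log2 fold change of 0.58 in normoxia (SE 0.21, adjusted p = 0.0247) and of 0.46 in hypoxia, where it did not pass (SE 0.26, adjusted p = 0.152).

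The H2B genes that were left out of the group, H2BC9 and H2BC15, had log2 fold changes of 0.54 and 0.54 in normoxia and of -0.66 and -0.43 in hypoxia, and none of these passed. H2BC9 had a log2 fold change of -1.15 in hypoxia against normoxia with onametostat (SE 0.43, adjusted p = 0.0647 in edgeR), with a count of 0 in library 3 of onametostat in hypoxia. H2BC15 had 0.914, 0.452 and 0.480 CPM with DMSO in normoxia and 1.09, 0.999 and 1.07 CPM with DMSO in hypoxia, a rise of 1.78-fold (log2 0.83, SE 0.26, adjusted p = 0.0223 in edgeR) without overlap. H2BC9 carries the octamer 49 bases before its start, and no octamer was found for H2BC15.

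In hypoxia with DMSO, 3 of these 9 genes rose by adjusted p in edgeR (H2AC6, H2BC15 and H3C6), against 14.1% of all genes. Of these 3, 1 was a DEG, against 0.599% of all genes called higher. The median log2 fold change of the 9 genes was 0.44. H3C6, for H3, had the largest rise of all measured replication-dependent histone genes in that comparison, with 0.609, 1.43 and 1.75 CPM in normoxia and 2.97, 2.34 and 3.28 CPM in hypoxia. The groups did not overlap, and the rise was 2.20-fold (log2 1.14, SE 0.24, adjusted p = 0.00177 in edgeR). With onametostat H3C6 was not higher, with log2 fold changes of -0.22 in normoxia (adjusted p = 0.551) and -0.64 in hypoxia (adjusted p = 0.0924) by the same test. The remaining genes, H2AC11, H2AC20, H3C8 and H4C8, had log2 fold changes between -0.57 and 0.18 with onametostat in normoxia and passed in no comparison.

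**Figure D3:**
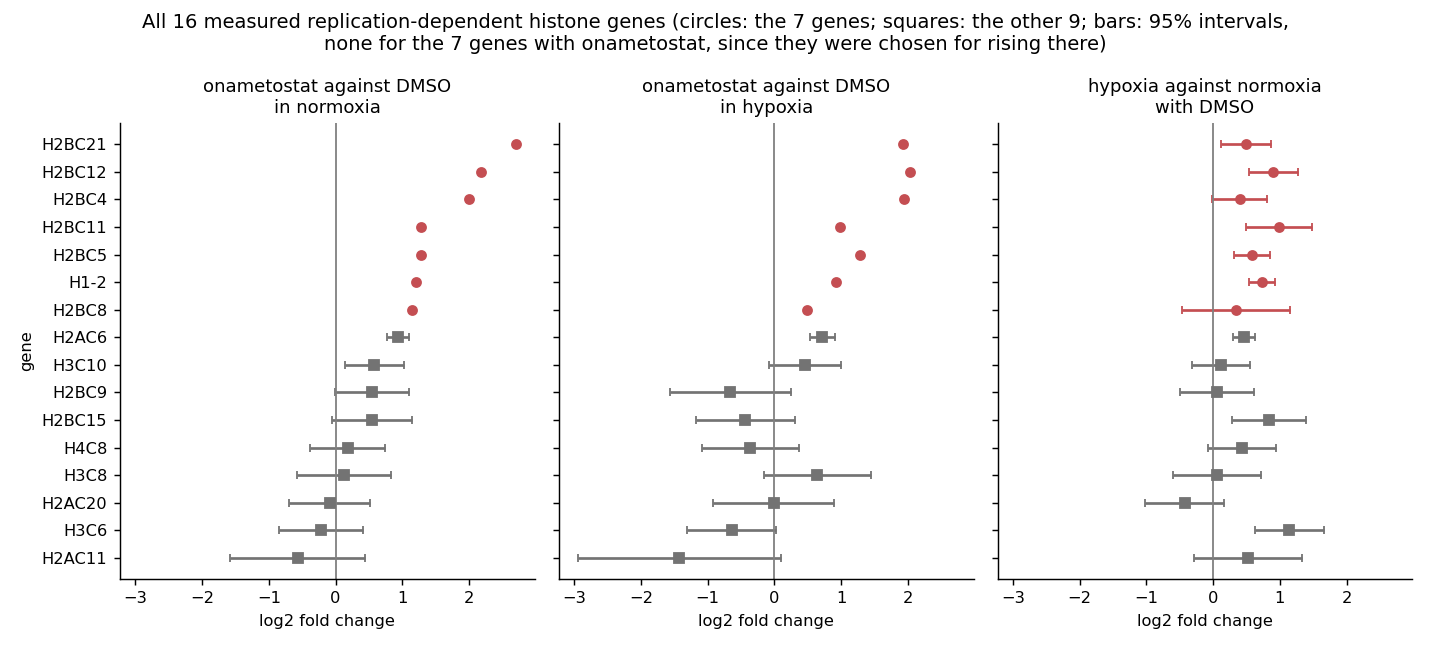
Log2 fold changes (horizontal axes) of the 16 measured replication-dependent histone genes, ordered by the value with onametostat in normoxia, with the 7 chosen genes as circles and the other 9 as squares. With onametostat the 7 genes lie at 1.15 to 2.70 in normoxia and the other 9 at -0.57 to 0.94, whereas in hypoxia with DMSO H3C6 (1.14) lies above all 7.

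In 3 cases an H2B gene of the group and an H2A gene of the count table start from a shared stretch of DNA and run apart. H2BC8 and H2BC12 face H2AC8 and H2AC12 in the same way, but those H2A genes were not analysed here. H2BC4 and H2AC6 start 219 bases apart, and their log2 fold changes in normoxia were 2.00 and 0.94. H2BC11 and H2AC11, 248 bases apart, had 1.28 and -0.57, and H2BC21 and H2AC20, 236 bases apart, had 2.70 and -0.09. In hypoxia with DMSO the same pairs had log2 fold changes of 0.40 and 0.47, of 0.99 and 0.52, and of 0.49 and -0.42. The difference within a pair was not tested, and H2AC11 and H2AC20 had at most 35 and 24 counts in a library.

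Next to the 7 genes lie genes that do not encode histones. Of 12 other measured genes within 100 kb, 2 were called higher in normoxia with onametostat, against 1.76% of all genes, and 0 were called lower. The median log2 fold change of the 12 was 0.06. Both of those called higher are known here by identifier only and lie on the minus strand, as H2BC11 and H2BC12 do. ENSG00000290032 (chr6:27138293-27138540) lies 5.50 kb before the start of H2BC11 and 7.82 kb past the annotated 3′ end of H2BC12, and closer still to H4C9, which runs on the opposite strand and was not analysed here. It had 2.00, 1.36 and 1.44 CPM with DMSO in normoxia, 3.93, 2.70 and 3.86 CPM with DMSO in hypoxia and 8.13, 8.17 and 8.31 CPM with onametostat in normoxia. With onametostat in hypoxia it had 12.8, 10.2 and 21.5 CPM. Its log2 fold change was 2.39 with onametostat in normoxia (SE 0.18), 1.82 with onametostat in hypoxia (SE 0.16) and 1.14 with DMSO in hypoxia against normoxia (SE 0.19). ENSG00000272468 (chr6:27122657-27123221) lies 2.68 kb past the 3′ end of H2BC11 and had log2 fold changes with onametostat of 1.17 in normoxia (SE 0.37) and 1.07 in hypoxia (SE 0.38). Both were singled out after their values were seen.

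The annotation of the 7 genes includes transcripts that run past the stem-loop. In GENCODE v44, 3 of the 7 genes (H2BC4, H2BC5 and H2BC11) have spliced transcripts, and 4 of 7 span more than 1000 bases, against 4 and 5 of the 9 other measured genes and 9 of 54 histone genes outside the table for either feature. H2BC4 (chr6:26086317-26123926, minus strand) spans 37610 bases, H2BC5 (chr6:26158122-26171349, plus strand) 13228, H2BC11 (chr6:27125897-27132795, minus strand) 6899 and H2BC21 (chr1:149884459-149886682, minus strand) 2224 bases. H2BC8 (chr6:26216200-26216688), H2BC12 (chr6:27146361-27146855) and H1-2 (chr6:26055740-26056470), all on the minus strand, are single exons of 489, 495 and 731 bases. The annotation that the authors counted on is not given in the sources used here, so levels are not compared between genes per length.

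Replacement histones are made outside S phase too, mostly from ordinary polyadenylated mRNA. Of 10 measured genes, 1 rose and 4 fell with onametostat in normoxia by adjusted p in edgeR, and the median log2 fold change was -0.08. By that rule 27.2% of all genes rose and 29.3% fell. H2AX, whose transcripts can end either way, was at 97.9, 105 and 104 CPM with DMSO in normoxia and at 53.0, 53.8 and 48.8 CPM with onametostat, without overlap (log2 -0.98, SE 0.04, adjusted p = 2.23e-11 in edgeR). H2AX was singled out after its values were seen.

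Genes of S phase and DNA replication mostly fell. Of 20 measured, 16 fell and 1 rose by adjusted p with onametostat in normoxia in edgeR, with a median log2 fold change of -0.43, and 13 fell and 3 rose in hypoxia, where 29.3% and 26.4% of all genes fell by the same test. In hypoxia with DMSO 15 of 20 fell, against 13.9% of all genes, with a median of -0.17. Their summed level was 3907 to 3932 CPM with DMSO in normoxia, 3529 to 3555 with DMSO in hypoxia, 2981 to 3065 with onametostat in normoxia and 2873 to 3084 with onametostat in hypoxia. RRM2, a subunit of ribonucleotide reductase, was the only DEG of the list with onametostat, falling by 1.33 on the log2 scale in normoxia (SE 0.04, adjusted p = 3.33e-13) and by 1.08 in hypoxia (SE 0.04, adjusted p = 3.11e-11). PCNA, the sliding clamp of DNA polymerases, fell by 0.45 in normoxia (SE 0.05, adjusted p = 1.18e-06). The part of S phase in the levels of the histone genes was not tested.

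Genes for the regulation of histone transcription changed in both directions. Of 10 measured, 3 rose and 6 fell with onametostat in normoxia by adjusted p in edgeR, with a median log2 fold change of -0.20. By that rule 27.2% of all genes rose and 29.3% fell. POU2F1, which binds the octamer, rose with onametostat by 0.21 in normoxia (SE 0.08, adjusted p = 0.0340) and by 0.33 in hypoxia (SE 0.09, adjusted p = 0.00654), and with DMSO in hypoxia by 0.24 (SE 0.08, adjusted p = 0.0339), on the log2 scale. NPAT, the coactivator that cyclin E and CDK2 turn on at the start of S phase, fell by 0.20 in normoxia (SE 0.05, adjusted p = 0.00511), and CCNE1, which encodes cyclin E1, had log2 fold changes of -0.18 in normoxia, where it did not pass (adjusted p = 0.0502), and -0.30 in hypoxia (adjusted p = 0.0124). CCNE2, which encodes cyclin E2, had the lowest log2 fold change of the list, -0.99 in normoxia and -0.94 in hypoxia. It stood at 34.0, 31.0 and 32.7 CPM with DMSO in normoxia and at 15.5, 16.2 and 17.2 CPM with onametostat in normoxia.

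The machinery that cuts histone precursors to form the stem-loop end was higher in 8 and lower in 3 of 15 genes with onametostat in normoxia by adjusted p in edgeR, where 27.2% of all genes were higher and 29.3% lower. SLBP, the stem-loop binding protein, had log2 fold changes of -0.10 in normoxia (SE 0.04, adjusted p = 0.0742) and -0.03 in hypoxia (SE 0.05, adjusted p = 0.710). LSM10 and LSM11, the subunits particular to the U7 ribonucleoprotein, rose by 0.19 (SE 0.07, adjusted p = 0.0254) and 0.38 (SE 0.07, adjusted p = 3.24e-04) in normoxia. In hypoxia with DMSO 8 of 15 genes of this list fell by adjusted p, against 13.9% of all genes, with a median log2 fold change of -0.16. SLBP fell by 0.18 there (SE 0.04, adjusted p = 0.00586 in edgeR).

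**Figure D4:**
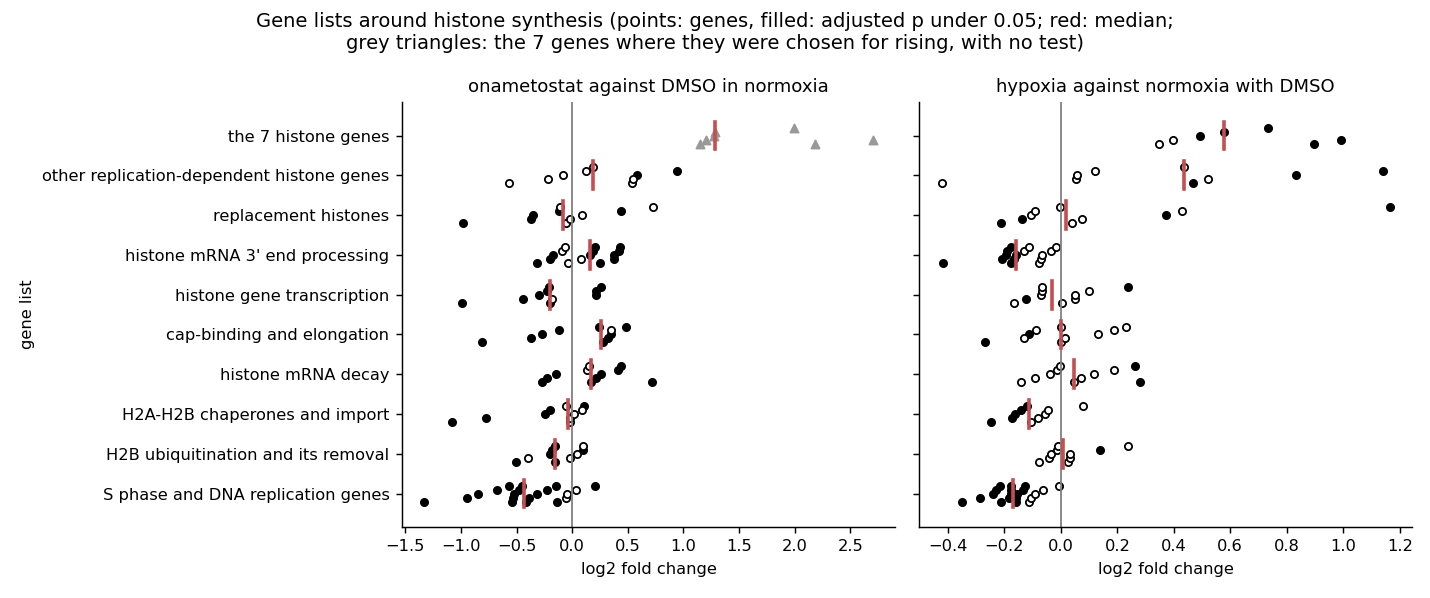
Log2 fold changes (horizontal axes) of each measured gene in 10 lists around histone synthesis, with onametostat in normoxia and in hypoxia with DMSO, filled where the adjusted p was under 0.05 and with the list's median in red. The 7 histone genes have medians of 1.28 and 0.58, while the S phase and DNA replication genes have medians of -0.43 and -0.17.

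In the remaining lists, too, counts are to be read against the 27.2% of all genes that rose and the 29.3% that fell with onametostat in normoxia. Of 10 genes for cap binding and elongation on histone transcripts, 5 rose and 4 fell with onametostat in normoxia by adjusted p in edgeR, and SUPT6H, which was called in hypoxia, stood at 5002 CPM in library 3 of that condition and at 365 and 335 CPM in libraries 1 and 2, and was not called without library 3. Of 11 genes of histone mRNA decay, 6 rose and 3 fell. Of 10 chaperones and import factors of H2A and H2B, 1 rose and 4 fell in normoxia, among them IPO9, the importin that carries H2A-H2B dimers, with log2 fold changes of -1.08 (SE 0.05, adjusted p = 5.58e-11) in normoxia and -1.02 (SE 0.06, adjusted p = 6.33e-10) in hypoxia. Of 10 genes of H2B ubiquitination and its removal, 1 rose and 5 fell in normoxia, and USP51 and USP27X, related ubiquitin proteases, were DEGs in hypoxia with -1.33 (SE 0.36, adjusted p = 0.00248) and -1.17 (SE 0.20, adjusted p = 5.31e-05). PRMT5 itself was higher with onametostat, by 0.43 in normoxia (SE 0.04, adjusted p = 4.41e-08) and 0.32 in hypoxia (SE 0.04, adjusted p = 9.41e-06).

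Among themselves, the 7 genes varied together over the 12 libraries except for H2BC8. Pearson's r of log2 CPM between each gene and the mean of the other 6 was 0.88 to 0.96 for 6 genes and 0.06 for H2BC8, which rose to 0.61 without library 3 of onametostat in hypoxia. Among the 11509 other genes with a mean log2 CPM of at least 1, the 4 with the profile most like the mean of the 7 were PC, FN1, H2AC6 and ANKRD13C. Their r over the 12 libraries was 0.983, 0.982, 0.981 and 0.980, and without library 3 of onametostat in hypoxia they ranked 5, 6, 21 and 25. These correlations are a description of 12 libraries in 4 conditions that differ in treatment, oxygenation and depth, and H2AC6 was the only histone gene among the 4.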

How the data were processed

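RNA of 12 T98-G libraries was sequenced after poly(A) selection with a stranded Illumina kit. The authors trimmed reads (fastp), mapped them (STAR), summarised them by gene (featureCounts, defaults) and dropped genes of low count with filterByExpr. The deposited table holds unscaled whole-number read counts, despite a title that speaks of normalization, and 0 columns were left unused. For alignment the methods give GRCh38, whereas the notes of the submitters list STAR 2.7.10a with GRCh37. Coordinates printed here are GRCh38. The methods and the labels differ on the RNA input.

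Log2 fold changes, SE and p-values came from edgeR 4.0.16 in R 4.3.3 (TMM, quasi-likelihood test, 1 fit of 4 conditions, Benjamini-Hochberg over 14698 genes, no further filter), and correlations used log2 CPM (prior count 2). Alternatives were DESeq2 1.42.0, limma voom (3.58.1), RLE factors, library sizes alone, a filter of 1 CPM in 3 libraries, the compared groups alone, a replicate block and leaving out libraries. On simulated counts with 200 of 14698 genes changed, adjusted p alone recovered 89% of 2-fold and 100% of 4-fold changes for hypoxia against normoxia with DMSO, with 18 false calls. Figures were drawn with matplotlib 3.10.9.

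Members and gene lists were chosen with earlier results of these data known. Named were all 7 genes, all other measured replication-dependent histone genes, up to 4 called genes per other list with the smallest adjusted p in the treatment comparisons, SLBP, NPAT, LSM10, LSM11, PCNA, CCNE1, PRMT5 and the most similar profiles (the rule took 5, and 1 is not reported here). HFE, POU2F1, CCNE2, H2AX and the genes known by identifier only were added after their values were seen.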

Additional observations from a re-analysis of the deposited data

How the results depend on the processing

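The low count total of library 3 of onametostat in hypoxia and the few counts of H2BC8 limit precision. Leaving out library 1 of that condition took the genes that passed in hypoxia against normoxia with onametostat from 3 to 0. The number of the 7 genes called as DEGs in hypoxia against normoxia with DMSO was 0, and it became 1 with DESeq2, 1 with library sizes alone and 5 without the fold threshold, and ranged from 0 to 2 when single libraries were left out. With onametostat in both groups it was 0, became 3 without the fold threshold and stayed at 0 without any single library. For onametostat against DMSO in normoxia it was 7 in every fit without a library and 6 with DESeq2, where H2BC8 was not called. In hypoxia it was 4 to 5, and for the interaction 0. The low-count filter removed H2BC8.

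The interaction of H2BC5, 0.00058 on the log2 scale, became -0.0395 with DESeq2, -0.00998 with RLE factors, -0.0332 with library sizes alone, -0.00145 with the low-count filter and -0.0570 with limma voom, and ranged from -0.16 to 0.15 without single libraries. That of H2BC4 ranged from -0.21 to 0.027, and the log2 fold change of H2BC8 with onametostat in hypoxia from -0.61 to 0.76. The causes of these changes were not tested.

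The labels number the experiments alike in all 4 conditions, but the values gave no sign that same-numbered samples deviate together. Of 18 same-numbered pairs 1 had a correlation of deviations over 0.1 (-0.16 to 0.12), and of 36 others 3 (-0.17 to 0.16). Under a replicate block 4 rather than 5 genes passed in hypoxia with DMSO, since H2BC21 had an adjusted p of 0.0616 in edgeR, the H2BC5 interaction was -0.0316, and 0, 0, 0, 7 and 4 genes were DEGs for hypoxia with DMSO, hypoxia with onametostat, the interaction, and onametostat in normoxia and in hypoxia.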
